A study of Homo sapiens with 18 samples.

Results

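The comparison described here is that of vehicle-treated NCI-H2347 cells, an established human lung cancer line, at 48 h against 12 h. Its members are the 6 arrays named for vehicle at these times, 3 at each, of 18 arrays in all. The series measured total RNA on Illumina HumanHT-12 v4 BeadChips, which carried 47323 probes and 1 colour. Per the labels, cells in RPMI medium with 5% fetal bovine serum received, 24 h after plating, fresh medium of the same kind with DMSO (the vehicle) or with 50 µM pioglitazone, and were harvested after 12, 24 or 48 h. The 2 groups compared were therefore 36 and 72 h from plating, both in DMSO and without pioglitazone, and the protocol describes no second change of medium. Time since plating, age of the medium, exposure to DMSO and cell density cannot be told apart in this design. The labels do not state whether the replicates were grown in separate dishes, so each p-value reflects only how far these samples varied, and that variation may be technical. The line is 1 cell line from 1 tumour, and in bulk RNA fewer cells of a kind and less RNA per cell cannot be told apart.

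Cells that are plated, fed and left to grow pass through changes that any later time point carries. Genes of mitosis are transcribed mainly in the G2 phase, through the MuvB complex with B-MYB and FOXM1, and are repressed by the DREAM complex in cells that leave the cycle, whereas genes of DNA replication follow E2F earlier, at the G1 to S transition. A change of serum medium is also known to reset the circadian clock of cultured cells, and glucose, cystine and lipids of the medium are known to set the levels of TXNIP, of NRF2 and ATF4 targets and of sterol genes.

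The 6 arrays were closely alike within each time. Pearson's r across genes on the normalised log2 scale was 0.994 to 0.995 between the 12 h arrays, 0.992 to 0.993 between the 48 h arrays and 0.977 to 0.981 between the times, and no pair of arrays held identical values. Between 17040 and 18880 probes were detected (detection p under 0.01) at 12 h and 17224 to 17384 at 48 h. The median raw intensity of undetected probes, a measure of background, lay between 108.2 and 111.7 at 12 h and between 102.8 and 106.9 at 48 h. The vehicle arrays at 24 h had a higher one, from 141.3 to 145.4, so the 24 h levels given below are a description and were not tested. Of 15 epithelial markers with a probe, 12 were detected on all arrays at both times. The linear signal summed over all 15, detected or not, ran from 37200 to 39000 at 12 h and from 42200 to 43000 at 48 h. KRT5, SFTPB and ESRP2 were detected on none of the 6 arrays. Of 12 fibroblast markers, COL1A1, COL1A2 and VIM were detected throughout, while PDGFRA, PDGFRB, LUM, FAP, THY1, POSTN and COL6A3 were detected on no array. The summed signal of all 12 was 10000 to 10600, then 8560 to 8980. Of 10 endothelial markers ESAM alone was detected on all 6 arrays (summed signal of the list 732 to 806, then 904 to 970), and 8 with PECAM1 and CDH5 were detected on none. Of 14 leukocyte markers 4 were detected on all arrays at 12 h and 3 at 48 h (summed signal of the list 2030 to 2130, then 2310 to 2380), while PTPRC, the pan-leukocyte antigen, was detected on none.

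Of 11680 genes tested, 3000 (25.7%) passed an adjusted p of 0.05 in limma, with 1409 (12.1%) higher and 1591 (13.6%) lower at 48 h. Most changes were small. At least 1.5-fold was reached by 1330 of these genes (590 higher, 740 lower), at least 2-fold by 246 (93 higher, 153 lower) and at least 4-fold by 5 (1 higher, 4 lower). The median log2 fold change over all genes was −0.006 with a median standard error of 0.145, against a median SD between replicates of 0.115 at 12 h and 0.126 at 48 h. The 3 values of one time lay wholly on one side of the other 3 in 5583 genes (47.8%). The number of calls depended on the scaling: with median scaling in place of quantile normalisation 373 genes passed, 42 higher and 331 lower, so that 11.3% of calls were higher instead of 47%, and the median of all genes moved to −0.203. Of the genes chosen by the naming rule 268 passed, all 268 kept their direction under that scaling, and 69 also passed with it. With no background correction 98 of those 268 moved by more than 1.5 times, all of them with a mean log2 signal of at most 7.69.

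**Figure D1:**
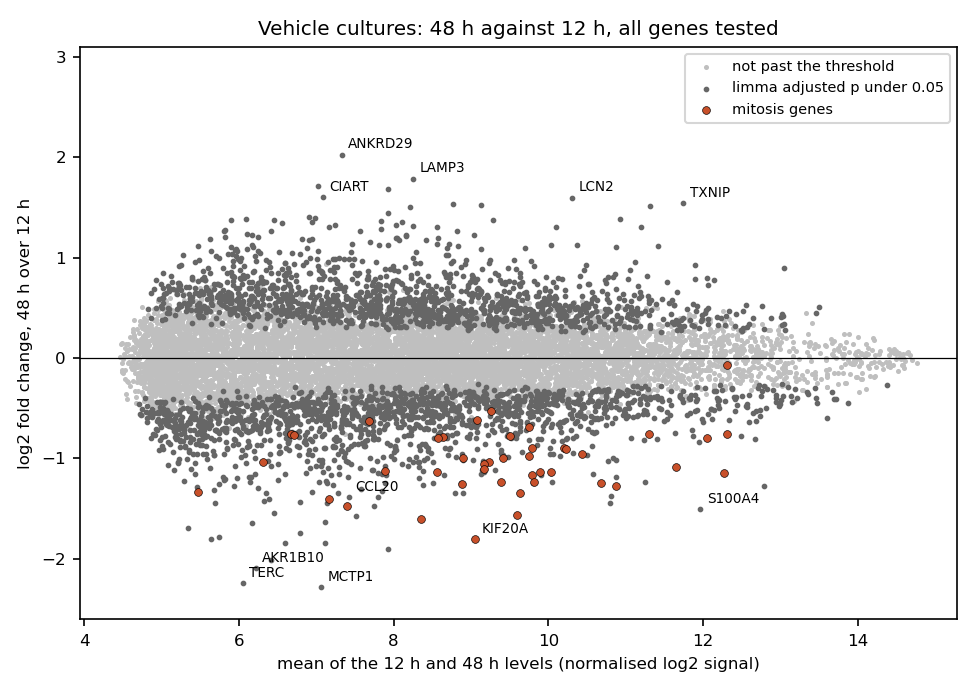
Log2 fold change at 48 h over 12 h (vertical axis) against the mean of the 12 h and 48 h log2 levels (horizontal axis) for 11680 genes, 1 point each. Light grey points did not pass, dark grey points passed an adjusted p of 0.05 in limma, and orange points are the 43 mitosis genes, of which 42 lie among the genes that fell.

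The 15 highest changes were led by ANKRD29, an ankyrin repeat gene. Its normalised log2 signal was 6.35, 6.28 and 6.32 on the 12 h arrays and 8.24, 8.32 and 8.49 on the 48 h arrays. The rule for naming these genes required the groups to be apart, which held in 47.8% of all genes. The level of ANKRD29 rose 4.08-fold (log2 change 2.03 ± 0.15 SE, limma adjusted p = 1.58e-07, n = 3 and 3). LAMP3, a lysosomal membrane glycoprotein that is also found in type II alveolar cells, read 7.45, 7.43 and 7.21, then 9.16, 9.26 and 9.02. It rose 3.45-fold, while its second probe gave 1.24 on the log2 scale against 1.79. TXNIP, which binds thioredoxin and limits glucose uptake, was bright on every array, with 11, 10.92 and 10.99 at 12 h and 12.47, 12.57 and 12.51 at 48 h. It rose 2.92-fold (log2 change 1.55 ± 0.11, limma adjusted p = 9.21e-08). LCN2, a secreted lipocalin that binds bacterial siderophores, read 9.43, 9.56 and 9.52, then 10.996, 11.17 and 11.15. This was a rise of 3.03-fold.

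The other genes among the 15 highest covered several cell functions. MAP1LC3A, an LC3 protein of the autophagosome, rose by 1.68 on the log2 scale, from 6.87, 7.17 and 7.23 to 8.64, 8.56 and 9.12. IL1RL1, the receptor of interleukin 33, rose by 1.53, SCG5, a chaperone of prohormone convertase, by 1.52, and PRPH, the neuronal intermediate filament peripherin, by 1.71. The long non-coding RNA EPB41L4A-AS1 read 10.54, 10.59 and 10.55, then 12.01, 12.12 and 12.09, a rise of 2.85-fold. SLC39A11, a zinc transporter, rose by 1.5 and PHLDB2, which anchors microtubules at the cell cortex, by 1.44. Both of the last-named genes did not pass with median scaling. KISS1R, the kisspeptin receptor, rose by 1.41, TKFC, which phosphorylates dihydroxyacetone, by 1.40, and LARP6, which binds collagen mRNA, by 1.38 (0.77 on its second probe). CIART, a repressor of the clock, was the remaining member and is described with the clock genes. With no background correction the log2 changes shrank to 1.23 for ANKRD29, 0.95 for PRPH, 0.76 for KISS1R and 0.77 for TKFC, and each still passed.

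Among the 15 lowest changes, MCTP1, a calcium-binding C2-domain protein of the endoplasmic reticulum, fell furthest. It read 8.22, 8.05 and 8.33 at 12 h and 5.76, 5.99 and 6.01 at 48 h, and fell 4.86-fold (log2 change −2.28 ± 0.14 SE, limma adjusted p = 3.43e-08, n = 3 and 3). TERC, the RNA template of telomerase, read 7.01, 7.13 and 7.37 at 12 h and was not detected on any 48 h array, which gives a level at least 3.64-fold lower. AKR1B10, an aldo-keto reductase of retinal and other aldehydes, read 7.37, 7.10 and 7.32, then 5.57, 4.98 and 4.97. Its fall was 4.27-fold, and it was detected on only 1 of the 3 arrays at 48 h. At 24 h its 3 vehicle arrays read 7.21, 7.33 and 7.37, close to the 12 h values.

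RAB7B, a small GTPase of late endosomes, fell by 2.01 on the log2 scale, and the reprimo-like gene RPRML fell by 1.84. CD247, the zeta chain of the T cell receptor complex, read 7.50, 7.44 and 7.61, then 5.70, 5.59 and 5.72. CD3D of the same complex was dimmer, at 6.05, 5.46 and 5.68, and not detected at 48 h, a level at least 1.34-fold lower. PTPRC was detected on no array, as given above. CNTRL, a centrosome protein, fell by 1.74, CHST4, a carbohydrate sulfotransferase, by 1.64, and the zinc finger gene ZBED2 by 1.64. Of the genes without detection at 48 h, ELAPOR1, an endosomal membrane protein, was at least 2.34-fold lower, the small nucleolar RNA SNORA12 at least 2.51-fold lower and MAT1A, which makes S-adenosylmethionine in liver, at least 1.84-fold lower. KIF20A, KIF4A and GAS2L3, all of cell division, completed the 15. With no background correction the log2 change was −1.29 for MCTP1, −0.91 for TERC, −0.89 for AKR1B10, −0.92 for RAB7B, −1.05 for RPRML, −0.90 for CD247, −0.91 for CNTRL, −0.68 for CHST4 and −0.94 for ZBED2, and each passed.

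**Figure D2:**
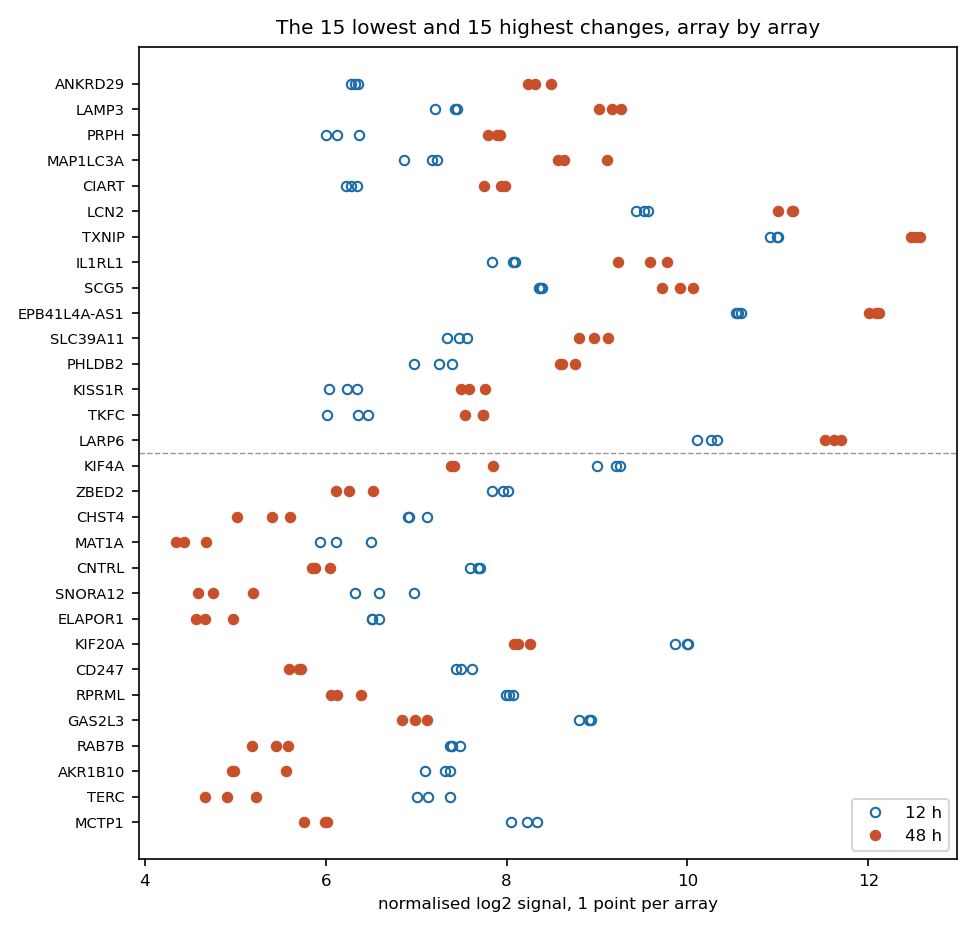
Normalised log2 signal (horizontal axis) of the 15 highest and 15 lowest changes, 1 point for each of the 3 arrays at 12 h (open) and at 48 h (filled). In each of the 30 genes the 3 points of one time lie wholly on one side of the other 3, which the rule for naming these genes required.

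The mitosis genes fell almost as a whole. Of 43 tested, 42 fell and none rose, against 13.6% and 12.1% of all genes. The median log2 change was −1.04 against −0.006 over all genes. BUB3 of the spindle checkpoint, singled out here with its value known, was the remaining member, at −0.07 ± 0.11 (limma adjusted p = 0.687). KIF20A, a kinesin of the central spindle, read 10.01, 9.86 and 9.998 at 12 h and 8.26, 8.12 and 8.08 at 48 h. It fell 3.49-fold (log2 change −1.80 ± 0.14 SE, limma adjusted p = 1.74e-07, n = 3 and 3). CENPA, the histone H3 variant of centromeres, read 10.32, 10.47 and 10.36, then 8.78, 8.83 and 8.85, and its second probe gave −1.58 beside −1.56. GAS2L3, which links actin and microtubules in cytokinesis and was not on the list, read 8.80, 8.93 and 8.91, then 7.12, 6.84 and 6.98. The chromokinesin KIF4A fell by 1.61, DLGAP5, a spindle assembly factor, by 1.34 and CDC25C, the phosphatase that activates CDK1, by 1.40. Other probes of CDC25C lay between −1.26 and −0.09, and SPC25 of the NDC80 complex, at −1.47, had a second probe at 0.16. MKI67, the antigen of proliferating cells, was dim at 6.19, 6.24 and 5.98 and was not detected at 48 h, a level at least 1.78-fold lower. Between 40 and 41 of the 43 genes passed when 1 of the 6 arrays was left out, and 35 passed with median scaling.

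Promoters of these genes are shown because the mitosis list moved together. The sequences are from RefSeq (GRCh38.p14), written 5′ to 3′ on the gene's strand, each ending at the base before the transcription start. Here and for the clock genes below, 1 entry was used per gene. Where a gene had several, it was the entry of lowest coordinate, which need not be the main promoter. Capitals mark the CHR, searched as TTTGAA or TTTAAA, and the CCAAT box, searched as CCAAT, both on either strand, so that ATTGG is CCAAT on the other strand. KIF20A lies at chr5:138178992-138179111 on the plus strand, CCNB2 (cyclin B2, chosen after its values were seen) at chr15:59104896-59105145 on the plus strand and CDC25C at chr5:138331805-138331924 on the minus strand. GINS2, a subunit of the replicative helicase, at chr16:85688955-85689122 on the minus strand, is set beside them for the DNA replication list.
KIF20A: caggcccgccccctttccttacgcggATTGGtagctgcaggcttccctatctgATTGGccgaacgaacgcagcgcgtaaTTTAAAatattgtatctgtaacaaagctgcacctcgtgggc
CCNB2: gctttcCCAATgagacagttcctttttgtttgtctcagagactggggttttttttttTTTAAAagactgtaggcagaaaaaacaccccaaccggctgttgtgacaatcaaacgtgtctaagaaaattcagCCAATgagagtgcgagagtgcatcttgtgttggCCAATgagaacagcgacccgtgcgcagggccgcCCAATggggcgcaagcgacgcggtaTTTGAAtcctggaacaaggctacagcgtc
CDC25C: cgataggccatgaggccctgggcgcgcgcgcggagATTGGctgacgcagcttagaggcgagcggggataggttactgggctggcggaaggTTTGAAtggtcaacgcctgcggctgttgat
GINS2: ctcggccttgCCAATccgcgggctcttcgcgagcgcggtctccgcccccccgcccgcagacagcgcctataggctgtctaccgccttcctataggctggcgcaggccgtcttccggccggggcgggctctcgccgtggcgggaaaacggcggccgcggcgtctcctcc
The CHR began 41 bases before the start in KIF20A and 30 in CDC25C, and the 2 matches in CCNB2 began 193 and 29 bases before it. CCAAT letters lay upstream of the match nearest the start in each. Over the 250 bases before the start, 27 of 35 mitosis promoters in the table held a CHR (77.1%), against 22.3% of all 27305 promoters and 14.8% of those of genes tested. Both motifs were held by 25 of 35 (71.4%), against 7.91% of all promoters. Of the 29 DNA replication promoters found, 1 held a CHR (3.45%) and 15 held CCAAT letters (51.7%, against 32.9% of all). These matches describe letters, and binding was not tested. CCNB2 fell by 1.27 on the log2 scale.

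**Figure D3:**
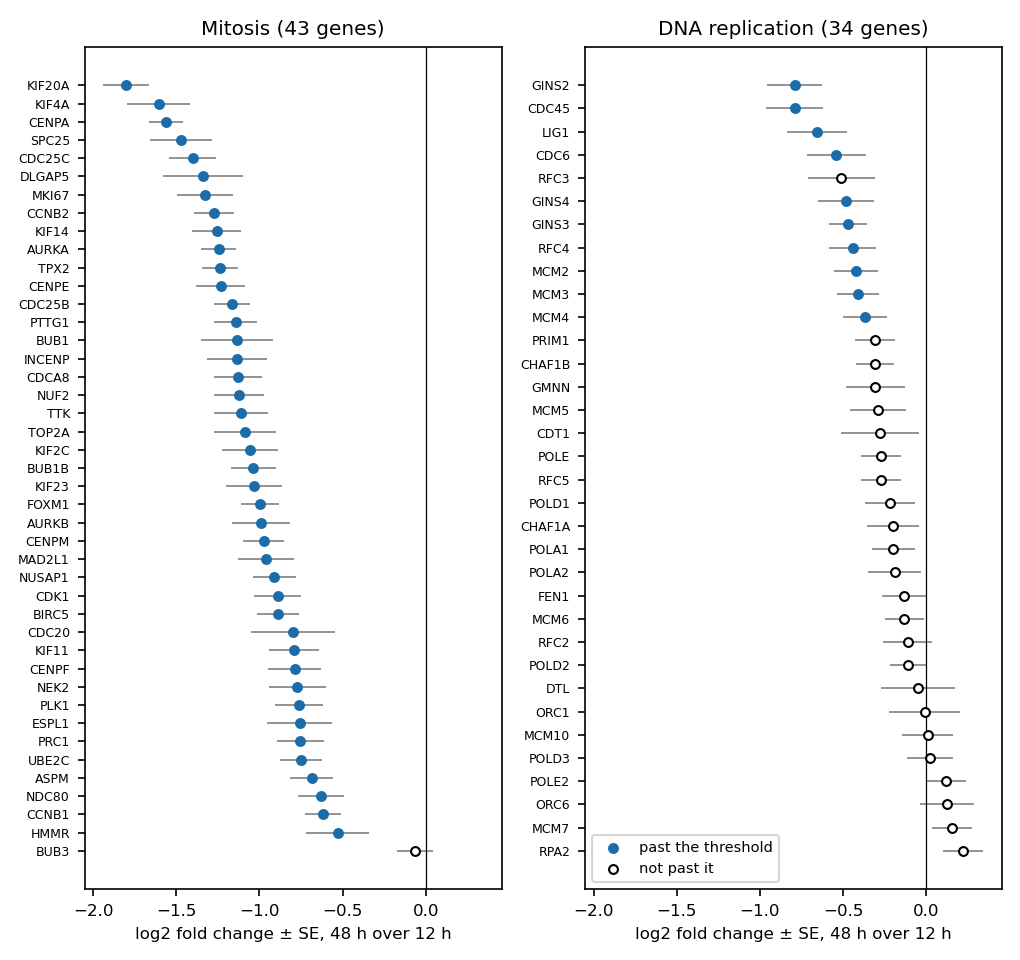
Log2 fold change at 48 h over 12 h with its standard error (horizontal axis) for 43 mitosis genes and 34 DNA replication genes, filled where the gene passed an adjusted p of 0.05 in limma. In the left panel 42 genes are filled and all lie left of 0, and in the right panel 10 of 34 are filled.

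DNA replication genes fell in part. Of 34 tested, 10 fell and none rose, against 13.6% and 12.1% of all genes, with a median log2 change of −0.27. GINS2 read 9.51, 9.53 and 9.32 at 12 h, 8.49, 7.91 and 8.01 at 24 h and 8.63, 8.70 and 8.67 at 48 h. Its level fell 1.73-fold from 12 to 48 h (log2 change −0.79 ± 0.16 SE, limma adjusted p = 0.00195), and the 24 h arrays were the lowest. CDC45, its partner in the helicase, had the same order, at 11.41, 11.52 and 11.45, then 10.20, 9.86 and 10.06, then 10.74, 10.63 and 10.64. The DNA ligase LIG1 fell by 0.66, with an adjusted p of up to 0.0608 when 1 array was left out. Between 4 and 8 members passed with 1 array left out, 4 of them without replicate 3 at 12 h or without replicate 2 at 48 h, and 2 passed with median scaling. The list medians, taken per array as the deviation from the 12 h vehicle mean, were −0.669 to −0.401 at 24 h and −0.317 to −0.165 at 48 h for DNA replication, but −0.626 to −0.443 and then −1.106 to −0.921 for mitosis.

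Genes of the G1 to S transition included 11 of 22 that fell and none that rose (median −0.46). Among all genes tested 13.6% fell and 12.1% rose. CCNA2, cyclin A2 of S phase and mitosis, read 11.59, 11.45 and 11.50 and then 10.07, 10.06 and 10.09, a fall of 2.71-fold. Thymidine kinase TK1 fell by 0.95, thymidylate synthase TYMS by 0.80 and the ribonucleotide reductase subunit RRM1 by 0.61. CCND1, cyclin D1, did not pass, at 0.22 ± 0.10 (limma adjusted p = 0.0992). Between 10 and 11 members passed with 1 array left out, and CCNA2 and TK1 alone with median scaling. Inhibitors of cyclin-dependent kinases and other quiescence genes showed no common direction, with 4 of 20 higher and 3 lower. CDKN1A (p21) was at −0.04 ± 0.11 and CDKN1B (p27) at 0.01 ± 0.10 (−0.24 with median scaling), and neither passed. CDKN2B (p15) rose by 0.55, with an adjusted p of up to 0.0518 when 1 array was left out, and CDKN2D (p19) fell by 0.85. MYC was at 0.03 ± 0.11 (−0.18 with median scaling) and did not pass, while its second probe gave 0.55. Of 18 canonical histones 4 fell and 1 rose, and H4C3 fell most, from 13.49, 13.51 and 13.29 to 12.10, 12.11 and 12.26. Of 8 APOBEC3 and DNA methylation genes 4 fell, among them the cytidine deaminase APOBEC3B by 1.16 and the methyltransferase DNMT3B by 1.03. CDKN2D, H4C3, APOBEC3B and DNMT3B passed with median scaling.

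Clock genes moved in both directions. Of 16 tested, 6 rose and 1 fell, against 12.1% and 13.6% of all genes. The median log2 change was 0.17, which turned to −0.06 with median scaling. CIART, which represses CLOCK and BMAL1, read 6.35, 6.28 and 6.23 at 12 h, 8.19, 8.20 and 8.41 at 24 h and 7.75, 7.94 and 7.98 at 48 h. It rose 3.04-fold from 12 to 48 h (log2 change 1.61 ± 0.15 SE, limma adjusted p = 1.05e-06, and 0.92 with no background correction), and the level was highest at 24 h. TEF, a PAR-domain transcription factor, rose by 0.88 and NR1D2, the repressor REV-ERB beta, by 0.75, and both were also higher at 24 h than at 48 h, at means of 7.56 and 8.66. PER3 rose by 0.61 and CRY2 by 0.56. CRY1, the other cryptochrome, read 7.78, 7.50 and 7.77, then 6.79, 6.97 and 6.63, and fell 1.85-fold. CIART alone passed with median scaling.

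The CIART promoter is shown because its gene had the largest change of the clock list. It lies at chr1:150282415-150282553 on the plus strand (RefSeq, GRCh38.p14), and capitals mark the E-box, searched as CACGTG, which reads the same on both strands.
CIART: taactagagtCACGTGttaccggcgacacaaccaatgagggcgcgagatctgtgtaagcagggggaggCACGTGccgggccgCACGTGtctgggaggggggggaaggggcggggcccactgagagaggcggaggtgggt
The 3 matches began 129, 71 and 57 bases before the start. Over 250 bases, 4 of 15 clock promoters held an E-box (26.7%), against 6.33% of all promoters and 8.7% of those of genes tested.

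**Figure D4:**
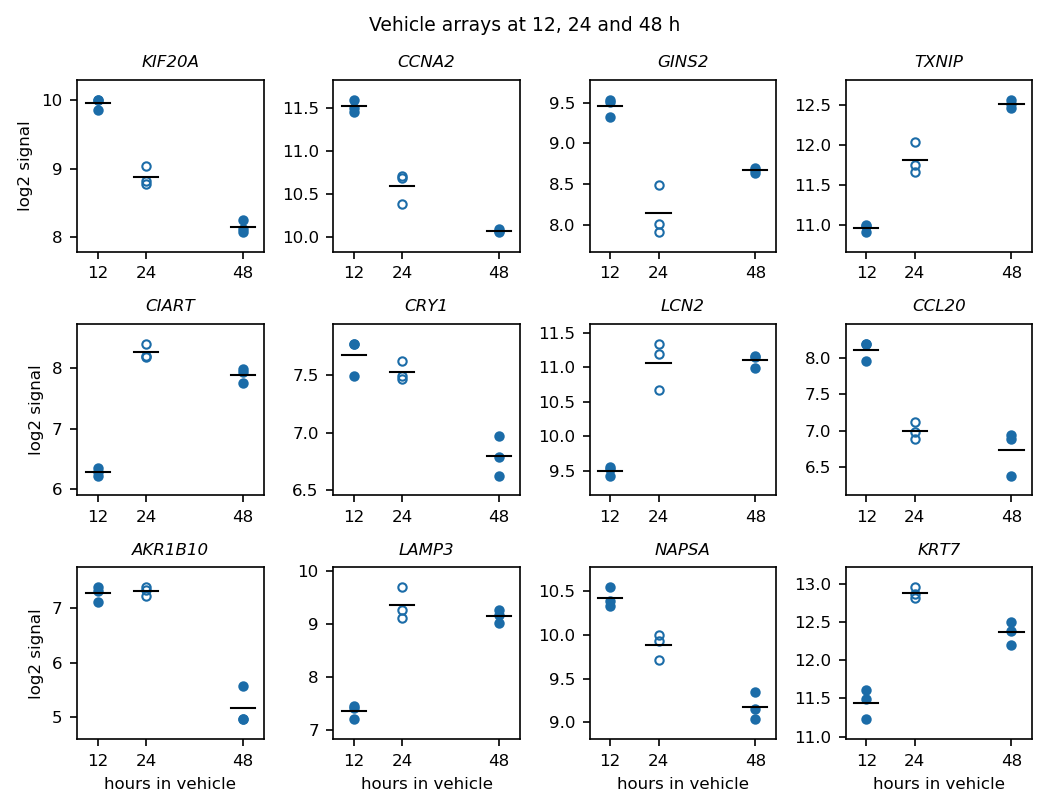
Normalised log2 signal (vertical axes, a separate range in each panel) of 12 genes on the vehicle arrays at 12, 24 and 48 h, 1 point per array with the mean as a line. Open points at 24 h come from arrays of higher background and were not tested; GINS2 is lowest and CIART highest at 24 h, while KIF20A falls and TXNIP rises from each time to the next.

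Targets of NRF2, the regulator of the antioxidant response, changed in most members. Of 20 tested, 10 fell and 3 rose, against 13.6% and 12.1% of all genes, with a median of −0.30. SLC7A11, the cystine transporter, read 8.57, 8.28 and 8.66 at 12 h and 7.29, 7.03 and 7.23 at 48 h, a fall of 2.50-fold (log2 change −1.32 ± 0.14 SE, limma adjusted p = 5.89e-06). The aldo-keto reductase AKR1C3 read 7.97, 8.0 and 8.02, then 7.03, 6.64 and 6.78. Thioredoxin reductase TXNRD1 was bright, at 12.88, 12.89 and 12.88, then 12.17, 12.13 and 12.02, and fell 1.71-fold. Sulfiredoxin SRXN1 fell by 0.81 and pirin (PIR) by 0.80. Against these, the exporter ABCC3 rose by 0.84, from 10.49, 10.40 and 10.43 to 11.26, 11.17 and 11.40. NQO1, the quinone reductase, rose by 0.27 (0.64 on its second probe) and heme oxygenase HMOX1 by 0.39, and their adjusted p reached 0.0907 and 0.168 when 1 array was left out. Median scaling kept 5 of the falls and none of the rises. The list medians per array were 0.092 to 0.208 at 24 h and −0.35 to −0.288 at 48 h.

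The list of glucose-responsive arrestin genes holds TXNIP itself. Of 9 tested 3 rose: TXNIP, ARRDC2 by 0.54 and ARRDC4 by 0.62, whose adjusted p in limma was 0.0469 and reached 0.187 with 1 array left out. The 1 that fell was TXNRD1, the thioredoxin reductase given above, which is not an arrestin gene. Of 22 glycolysis genes 4 fell and 1 rose, but 2 fell without replicate 3 of either time, 3 without any other 1 array, and none rose with any 1 array left out. LDHA, lactate dehydrogenase A, read 13.85, 13.88 and 13.96, then 13.25, 13.42 and 13.24, a fall of 1.51-fold. Triosephosphate isomerase TPI1 fell by 0.50. Of 17 hypoxia-induced genes 4 fell, among them EGLN1, the oxygen-sensing prolyl hydroxylase, by 0.50 and the mitophagy gene BNIP3 by 0.42. The other direction was taken by MXI1, a MYC antagonist, at 0.74, and by VEGFA at 0.48, whose adjusted p of 0.0371 reached 0.12 with 1 array left out. Of 18 tricarboxylic acid cycle genes 3 fell and 1 rose, with IDH2 at −0.81 and IDH3A at 0.44. Of 31 oxidative phosphorylation genes 3 fell, led by NDUFA9 of complex I at −0.72, and none rose. Both shares are below those over all genes (13.6% lower, 12.1% higher), beside which the other counts of this paragraph are also to be read. LDHA and IDH2 passed with median scaling, and the other genes of this paragraph apart from TXNIP and TXNRD1 did not.

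Lipid genes changed in a small part, and their counts are to be read beside 12.1% of all genes higher and 13.6% lower. Of 17 cholesterol synthesis genes 4 rose and 1 fell. CYP51A1, lanosterol demethylase, read 6.98, 6.94 and 6.91, then 7.86, 7.57 and 7.49. HMGCS1, a synthase early in the pathway, instead fell by 0.65, from 10.06, 9.84 and 9.78 to 9.25, 9.30 and 9.17. None of 11 sterol sensing and uptake genes passed; SREBF1 was at 0.44 (limma adjusted p = 0.0886). Of 8 LXR targets ABCA1, the cholesterol exporter, rose, by 0.74. Of 18 fatty acid synthesis genes 5 rose and 2 fell, with the elongase ELOVL6 at 0.76 and acetyl-CoA carboxylase ACACB at −0.72. Of 23 PPAR targets 5 fell and none rose. They included catalase (CAT) at −0.62, with a second probe at −0.16, and the carnitine carrier SLC25A20 at −0.70. PDK4, the pyruvate dehydrogenase kinase, read 5.81, 5.95 and 5.82, then 5.39, 5.34 and 5.28, and did not pass (limma adjusted p = 0.0769). With 1 array left out 2 to 3 cholesterol synthesis genes and 3 to 4 fatty acid synthesis genes rose and 3 to 5 PPAR targets fell, and with median scaling no gene of these 5 lists passed.

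Stress-response lists were mixed, beside 12.1% of all genes that rose and 13.6% that fell. Of 32 ATF4 targets 9 rose and 4 fell; 6 rose without replicate 1 at 48 h, 5 without replicate 2 at 12 h and 4 without any other 1 of the 6 arrays. GDF15, a secreted stress cytokine, read 8.04, 8.26 and 8.26, then 9.11, 9.35 and 9.19, and rose 2.04-fold. DDIT3, the factor CHOP, rose by 0.80 from 10.31, 10.40 and 10.39. ASNS, asparagine synthetase, fell by 0.29 with an adjusted p in limma of 0.0248 that reached 0.103 with 1 array left out, and its second probe gave −0.05. The largest change of the list was the fall of SLC7A11, given above, by 1.32. ATF5 also fell, by 0.51 to 0.78 with 1 array left out, where its adjusted p in limma reached 0.0926. With median scaling 2 of the ATF4 falls passed and 0 of the rises. Of 18 aminoacyl-tRNA synthetases 3 rose and none fell, with SARS1 at 0.51. Of 17 endoplasmic reticulum chaperones 3 rose and 1 fell, and HSPA5 (BiP) read 7.94, 7.87 and 7.81, then 8.57, 8.56 and 8.56. Of 16 heat shock genes 5 fell and 1 rose, among them the small heat shock protein HSPB8 at −1.22 and HSP90AB1 at −0.54. Of 24 p53 targets 4 rose, with SPATA18 at 0.85 and SESN2 at 0.66, and 2 fell, with MDM2 at −0.68. Of the genes named in this paragraph HSPB8, SLC7A11 and ATF5 alone passed with median scaling.

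Inflammatory genes fell and rose, and LCN2 had the largest change among them. Of 22 NF-kB and inflammatory genes 7 fell and 2 rose (median −0.28), where 13.6% of all genes fell and 12.1% rose. CCL20, a chemokine of lymphocytes and dendritic cells, read 8.20, 8.19 and 7.96, then 6.38, 6.95 and 6.89, and fell 2.61-fold. IL6, interleukin 6, read 6.78, 6.70 and 6.72, then 5.60, 5.41 and 5.61. CXCL8, interleukin 8, read 10.09, 10.07 and 10.21, then 8.98, 9.37 and 9.22, a fall of 1.91-fold (log2 change −0.93 ± 0.15 SE, limma adjusted p = 0.000212). NFKB2 fell by 1.02 and TNFAIP3, a feedback inhibitor, by 0.59. CFB, complement factor B, rose by 0.68. Of 34 interferon-stimulated genes 11 fell and 3 rose (median −0.14), and 7 fell without replicate 3 at 48 h, against 8 to 11 without any other 1 array. The antiviral genes IFIT1 and HERC5 fell by 0.85 and 0.82 and passed with median scaling, and HERC6 fell by 1.08. UBE2L6, the conjugating enzyme of ISG15, rose by 0.88, and IFI44L rose by 0.70 on the probe used but was at −0.04 on its second. Of 15 antigen presentation genes HLA-B rose by 0.47 and HLA-G by 0.41, probes of a family of near-identical genes, and the peptide transporter TAP1 fell by 0.43, with an adjusted p of up to 0.0554 when 1 array was left out. LCN2, CCL20, IL6 and CXCL8 also passed with median scaling.

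Lung lineage genes parted in both directions. Of 13 tested 5 rose and 5 fell, against 12.1% and 13.6% of all genes, and 3 to 5 fell with 1 array left out. Beside LAMP3, ABCA3, the lipid transporter of lamellar bodies, rose from 7.73, 7.74 and 7.79 to 8.98, 8.74 and 8.53. Surfactant protein D (SFTPD) rose from 5.23, 4.99 and 5.07 to 6.16, 6.07 and 6.27, but its 12 h values were at or near background, which limits the size of its change. The inhibitor of differentiation ID2 rose by 0.89. NAPSA, the protease napsin A that processes surfactant protein B, read 10.33, 10.39 and 10.55, then 9.35, 9.15 and 9.03, and fell 2.37-fold (log2 change −1.25 ± 0.16 SE, limma adjusted p = 2.81e-05). HOPX, an alveolar homeodomain protein, fell by 0.96 and the secreted SFTA2 by 0.73. LAMP3, NAPSA, HOPX and SFTA2 passed with median scaling. The surfactant gene SFTPA1 rose by 0.57, with an adjusted p of up to 0.174 when 1 array was left out, and its near-identical copy may share the probe's signal.

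Epithelial and adhesion genes were changed singly, and over all genes tested 12.1% rose and 13.6% fell. Keratin 7 (KRT7) read 11.23, 11.61 and 11.49, then 12.50, 12.38 and 12.20, and rose 1.90-fold, with a still higher mean of 12.88 at 24 h. KRT19 rose by 0.45 and KRT80 fell by 0.78, the other changes among 8 keratins. The calcium-binding protein S100A4 read 12.75, 12.77 and 12.63, then 11.30, 11.13 and 11.22, and fell 2.83-fold, with a second probe at −1.56. CEACAM6, an adhesion molecule, fell by 1.23 and S100A3 by 0.88, and 4 of 12 CEACAM and S100 genes fell while 2 rose, but none rose without replicate 1 of either time and 1 without any other 1 array. Of 15 desmosome and adherens junction genes 4 rose, led by periplakin (PPL) at 0.66 (2 to 3 rose with 1 array left out), and PKP1 fell by 0.64. Of 15 claudin and tight junction genes 2 rose and 1 fell, the lung claudin CLDN18 at −0.75. Of 7 genes of epithelial to mesenchymal transition 3 rose and 2 fell. SNAI2, the repressor Slug, read 7.04, 6.62 and 7.09, then 7.76, 8.0 and 8.17, and N-cadherin CDH2 rose by 0.42, while fibronectin FN1 fell by 0.81 and vimentin VIM did not pass at −0.25. None of 7 mucin and secretory genes passed. S100A4, CEACAM6, S100A3, CLDN18 and FN1 passed with median scaling.

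Signalling lists held few changes of size, and their counts are to be read beside 12.1% of all genes higher and 13.6% lower. Of 23 TGF-beta and matrix genes 4 rose and 4 fell, but 1 fell without replicate 3 at 48 h. The feedback gene PMEPA1 was highest, from 9.15, 9.31 and 8.97 to 10.21, 10.17 and 10.34, followed by the latent TGF-beta binding protein LTBP3 at 0.95, and fibronectin FN1, given above, was lowest. Of 22 YAP targets 2 rose and 4 fell. NT5E, the ectonucleotidase CD73, rose by 0.96 and the kinase NUAK2 fell by 0.73, CCN1 was at −0.30 with an adjusted p of 0.0438 that reached 0.167 with 1 array left out, and CCN2 did not pass at 0.28. Of 17 Notch genes 6 rose and 2 fell. The ligands JAG2 and JAG1 rose by 0.66 and 0.44 and the Fringe enzyme LFNG by 0.76, and HEY1, a target, rose by 0.67 on the probe used and was at 0.09 on its second. Of 15 Wnt genes 7 fell and 1 rose, and 4 fell without replicate 2 or 3 at 12 h or replicate 3 at 48 h. DKK3 fell by 1.19 and the ubiquitin ligase ZNRF3 by 0.54. Of 19 MAPK feedback genes 5 fell and 2 rose, with the phosphatase DUSP5 at −0.55, ETV4 at −0.56 and the ephrin receptor EPHA4 at −0.57. Of 22 immediate early genes 2 rose and 2 fell, and FOS fell by 0.78. Of 11 EGFR ligands and receptors 2 fell, but none without replicate 1 at 12 h and 1 without any other 1 array. With 1 array left out, 2 to 4 YAP targets fell. Apart from FN1, NUAK2 and DKK3 alone of the genes in this paragraph passed with median scaling.

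Further lists held single genes of larger change, and their small counts moved by up to 2 genes when 1 array was left out. The shares over all genes were 12.1% higher and 13.6% lower. Of 14 retinoid genes 3 fell and 1 rose: the retinal dehydrogenase ALDH1A1 was not detected at 48 h, a level at least 1.54-fold lower, with a second probe at −0.19, and the retinal reductase DHRS3 rose by 0.92. Of 21 lysosome and autophagy genes 2 rose and 2 fell, with alpha-galactosidase GLA at −0.95. Of 15 BCL2 family genes 4 fell and 2 rose, with BIM (BCL2L11) at −1.06. Of 11 iron genes 4 rose and 3 fell, with the reductase STEAP2 at 0.66 and the transferrin receptor TFRC at −0.38. Of 10 metallothionein and zinc genes 3 fell and 1 rose, with MT1M at −0.82, whose probe may take signal from near-identical copies. Of 14 matrix protease genes 3 rose and 2 fell, with TIMP1 at 0.51. Of 31 ribosome biogenesis genes 4 rose and 1 fell. Of 6 aryl hydrocarbon receptor targets and of 11 glucocorticoid-responsive genes 1 rose and 1 fell in each list. Of 13 housekeeping genes 4 fell and 1 rose, with HPRT1 at −0.39 and beta-actin ACTB at −0.26, whose adjusted p was 0.0592 to 0.114 with 1 array left out. Of 6 leukocyte markers tested 2 fell, CD3D and CSF1R (−0.92), and CD68, a lysosomal protein also made outside leukocytes, rose by 0.51. ALDH1A1, GLA, BCL2L11, CD3D and CSF1R passed with median scaling. None of 3 fibroblast or 2 endothelial markers tested passed.

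**Figure D5:**
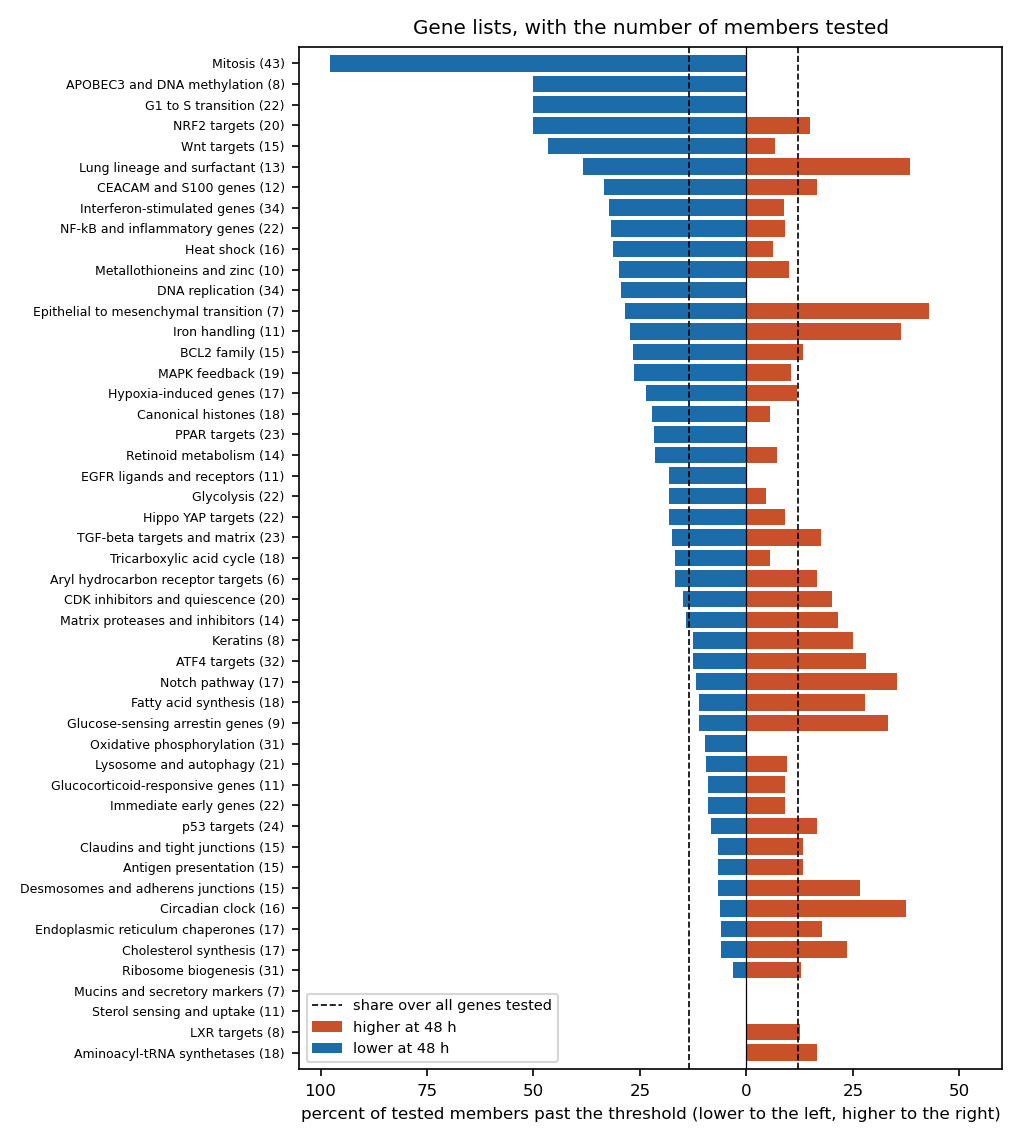
Percent of tested members of each list shown that passed an adjusted p of 0.05 in limma, with the number tested in brackets. Lower at 48 h is to the left and higher to the right. Lists with under 5 tested members are left out, as are the leukocyte marker, epithelial marker and housekeeping lists. Dashed lines mark the shares over all genes, 13.6% lower and 12.1% higher, and the mitosis bar (42 of 43) is the longest.

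The change from 12 to 48 h was also set against that in pioglitazone cultures. The difference of the time effects passed an adjusted p of 0.05 in limma in 1081 of 11680 genes (9.26%), but in 67 with median scaling and in 1706 with array weights. Of the 3000 genes called in vehicle, 543 passed for this difference. They were called by the vehicle change that the difference subtracts, so this count cannot be set against the share over all genes. In the mitosis list 39 of 43 genes fell further with the drug (median difference −2.12 on the log2 scale), and per array the list median at 48 h was −1.106 to −0.921 in vehicle and −3.449 to −3.092 with pioglitazone. One of the 3 pioglitazone arrays at 48 h was of higher background (153.4), and 1055 genes passed with arrays of the lower background class alone.

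Detection separated the times in few genes. There were 21 genes (0.18%) with detection on all 3 arrays at 48 h and on none at 12 h, and 94 (0.805%) of the opposite kind. FHIT, a diadenosine triphosphate hydrolase, was at least 1.99-fold higher at 48 h and the pentraxin PTX3 at least 1.74-fold higher, both chosen after their values were seen. TERC had the largest bound of the opposite kind. Of the 3 arrays at 12 h 2 had more detected probes than any at 48 h, and all 3 had a higher background, and the part of this in the counts was not tested.

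The 24 h means of the genes called between 12 and 48 h took several positions. Of the 1409 genes that rose by 48 h, 755 had a 24 h mean between the other 2 means, 411 had one above the 48 h mean and 243 had one below the 12 h mean. Of the 1591 that fell, 984 lay between, 247 below the 48 h mean and 360 above the 12 h mean. KIF20A, CCNA2 and TXNIP lay between, with 24 h means of 8.88, 10.60 and 11.82, LCN2 at 11.07 was already near its 48 h level, and AKR1B10 at 7.30 was at its 12 h level. These positions carry the background difference of the 24 h arrays, whose part was not tested. The genes were also chosen by their difference between 12 and 48 h, which favours a 24 h mean in between. The same counts over all genes were not made.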

How the data were processed

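Total RNA of 18 samples, 3 for each of 6 groups, was labelled with biotin and hybridised to 1-colour BeadChips. The authors deposited a table of unnormalised intensity and a detection p-value for each probe and array, with GenomeStudio named in the submitters' processing notes; the software's version is not given in the sources used here. A second table of processed intensity, which the authors deposited, served as an alternative. Intensities were background-corrected, quantile-normalised and put on the log2 scale with neqc (offset 16) in limma 3.58.1 (R 4.3.3). Probes with a detection p-value under 0.01 on at least 3 arrays were kept (20032). Genes were named from the platform annotation (30113 probes with 1 symbol, 8 with several, 17202 with none), and the brightest kept probe stood for a gene. A model with 1 coefficient per group over all 18 arrays gave the contrast, with Benjamini-Hochberg adjustment over 11680 genes.

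The comparison, the 54 gene lists and the rule below were chosen with earlier results of these data known. Named were the 15 highest and 15 lowest changes that passed with groups apart, up to 6 members per direction of each list (or the 2 of smallest p where none passed), and 18 genes in every case, of which 3 are not analysed here; exceptions are said to be chosen after their values were seen. Of a gene not detected on 1 side, the bound is the bright group's mean over the higher of the lowest detected signal and the probe's own. Array number limits the precision. On simulated data of 11680 genes for this comparison, 51 of 100 changes of 1.5-fold and 94 of 100 of 2-fold were recovered, with 5 false calls. Only these genes were changed there, a far smaller share than the 25.7% called in the data. Independent normal noise was used on the normalised scale, and normalisation was not simulated. The rates therefore need not hold for the data. Alternatives varied the background correction, offset, scaling, table, filter, probe rule, arrays fitted and weights, and left out each array.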

Additional observations from a re-analysis of the deposited data

Results flagged for a closer look

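The change from 12 to 48 h differed between pioglitazone and vehicle cultures in 1081 genes by the test of that difference (limma, adjusted p under 0.05). That is 9.26% of all genes tested. In 17 of the 30 genes with the largest changes in vehicle this difference passed, given here as the drug cultures' log2 change minus that in vehicle. These 30 genes were chosen by the vehicle change, which the difference subtracts. Such a choice favours a smaller change with the drug. Neither their count nor the smaller changes below can therefore be read as an effect of the drug. The larger changes with the drug, in KIF20A, GAS2L3, KIF4A and SLC39A11, run against the direction that this choice favours. Among genes that rose in vehicle it was −2.32 for IL1RL1, −2.07 for LAMP3, −1.91 for PRPH, −1.16 for LCN2, −1.12 for KISS1R, −0.88 for SCG5 and −0.78 for CIART, a lower change with the drug than in vehicle, and it was 0.83 for SLC39A11. Among genes that fell in vehicle it was −2.29 for KIF20A, −2.07 for GAS2L3 and −2.05 for KIF4A, a deeper fall with the drug. It was 1.35 for AKR1B10, 0.95 for ELAPOR1, 0.83 for RPRML, 0.81 for ZBED2, 0.69 for CHST4 and 0.63 for RAB7B, a shallower fall. In vehicle at 48 h ELAPOR1 was detected on none of the 3 arrays and AKR1B10 on 1, so their falls in vehicle, and with them these differences, rest on signals at or near background. Groups of 3 arrays were not searched for single outlying samples.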

How the results depend on the processing

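The 3000 calls became 373 with median scaling, the 302 distinct list genes called became 78, and the 1081 genes with a differing drug effect became 67; array weights raised the last to 1706. The cause was not tested. Leaving out each array gave 2122 to 2532 calls, 238 to 264 list genes and 759 to 1304 differing genes. The other alternatives stayed within 1.5 times of each count and reversed no named call, and 68 of 268 named calls held under every alternative, median scaling included. Replicate numbers did not pair the arrays: same-numbered deviations correlated at −0.0519, −0.138 and −0.00868, and a replicate block gave 2898, 295 and 1029 calls. The restriction to arrays of lower background (3602 calls, and 1055 differing genes) was chosen after seeing the data. Signal near background limits the fold changes of dim genes.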

Other observations

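Small non-coding RNAs changed beyond TERC and SNORA12, and the genes of this paragraph were chosen after their values were seen. Of 9 genes annotated as small nuclear RNAs 5 fell and none rose in limma, among them RNU4ATAC of the minor spliceosome and RNU4-2 of the major one (limma adjusted p = 0.0207 and 0.0262). Both were detected on no array at 48 h, which gives levels at least 1.30-fold and 1.16-fold lower, and RNU4ATAC was detected on 2 of 3 arrays at 12 h. RPPH1, the RNA of ribonuclease P, was also not detected at 48 h, a level at least 1.73-fold lower (limma adjusted p = 0.00364). The Y RNA RNY1 was detected on all 6 arrays and fell by 1.34 on the log2 scale (limma adjusted p = 0.000429). Small nucleolar RNAs had no common direction: of 94 tested 11 rose and 12 fell, with SNORA8 at 0.99 against SNORD96A at −1.38, both detected on all 6 arrays. Probes to such short RNAs may take signal from host transcripts or near-identical copies, and these values are uncertain for that reason. Of 212 long non-coding RNAs 21 rose and 28 fell. These counts and those of the small nucleolar RNAs lay near the shares over all genes, 12.1% higher and 13.6% lower.

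Of 4354 kept probes without a gene symbol in the annotation, 436 were higher and 314 lower at 48 h, against 2136 higher and 2335 lower among all 20032 kept probes.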
